A study of Homo sapiens with 4 samples.

Results

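Peaks of ETS1 and RUNX1 were described at 7 genes of the RUNX and core-binding-factor system in 6T-CEM cells: RUNX1, RUNX2, RUNX3, CBFB, CBFA2T2, CBFA2T3 and RUNX1T1. Every peak inside one of these genes, or within 100 kb of its RefSeq bounds on hg38, was taken. These windows held 32 of 6082 and 28 of 5625 peaks in ETS1 libraries 1 and 2. In RUNX1 libraries 1 and 2 they held 114 of 25360 and 112 of 25001 peaks. The 7 genes are 7 of the 19821 protein-coding genes used for comparison.

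6T-CEM is a human cell line of T-cell acute lymphoblastic leukaemia (T-ALL), and the study's title concerns SH2D1A in the progression of that disease. Chromatin of these cells was profiled by CUT&Tag, in which an antibody guides the transposase Tn5 to cut and tag the DNA beside its target. An ETS1 antibody (Santa Cruz sc-55581) was used in 2 libraries, and a RUNX1 antibody (Abcam ab272456) in 2 others. Peaks were called in each library against IgG. All 4 libraries came from this single line, with no treatment or genotype contrast in the labels. Nothing in the labels says that libraries of one antibody came from separate cultures, so their spread may be technical. A peak is evidence of tagged chromatin and not of expression, and a place without a peak is only one that did not pass the authors' call.

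RUNX1, RUNX2 and RUNX3 are transcription factors that bind DNA through the runt domain. CBFB, their shared partner, does not touch DNA and strengthens their binding. Each RUNX gene is known to start from a distal promoter, P1, and a proximal promoter, P2, which give proteins with different N-termini. CBFA2T2, CBFA2T3 and RUNX1T1 encode the ETO family of corepressors, and RUNX1T1 and CBFA2T3 are known as partners of RUNX1 in the fusion genes of acute myeloid leukaemia. RUNX1 and RUNX3 are active in developing T cells, RUNX2 is best known as the regulator of bone formation, and ETS-family and RUNX proteins are known to bind neighbouring sites in T-cell enhancers.

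The promoter sequences are shown first because the RUNX genes differed in which of their promoters carried peaks. RefSeq windows of GRCh38.p14, from 250 bases before to 50 after a listed start, matched 7 starts of 5 of the genes. CBFB, RUNX1T1 and P1 of RUNX1 are not printed. Capitals mark the letters TGTGGT or TGCGGT for RUNX, and CCGGAA or CAGGAA for ETS, on either strand, so that ACCACA is the reverse complement of TGTGGT. None of the matches overlapped. Such a match is a description of letters and not a binding site. RUNX letters occurred in 19.6% and ETS letters in 41.4% of 35116 promoter windows of the same length, and 8.31% held both.

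P2 of RUNX1 starts at position 34888699, and the 250 bases before it on the minus strand lie at chr21:34888700-34888949. They carried the summits of an ETS1 region, and they hold ETS letters and no RUNX letters.
RUNX1 P2: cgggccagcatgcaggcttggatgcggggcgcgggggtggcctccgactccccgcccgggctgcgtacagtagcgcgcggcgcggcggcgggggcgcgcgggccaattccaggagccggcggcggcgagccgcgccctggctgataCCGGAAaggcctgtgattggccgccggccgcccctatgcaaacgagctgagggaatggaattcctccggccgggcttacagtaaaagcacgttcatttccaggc

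RUNX2 is on the plus strand, with P1 starting at position 45328330 and P2 at 45422275. The bases before them lie at chr6:45328080-45328329 and chr6:45422025-45422274. P1 carried no peak in any library, although its window of 300 bases holds 5 RUNX matches, of which the 2 before the start are shown, and 1 ETS match. P2 carried a RUNX1 region, and its window holds no letters of either kind.
RUNX2 P1: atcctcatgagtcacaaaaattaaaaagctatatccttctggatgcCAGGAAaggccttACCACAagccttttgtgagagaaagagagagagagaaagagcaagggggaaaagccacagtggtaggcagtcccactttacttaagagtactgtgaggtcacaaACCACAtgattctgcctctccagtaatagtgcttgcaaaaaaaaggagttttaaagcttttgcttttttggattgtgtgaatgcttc
RUNX2 P2: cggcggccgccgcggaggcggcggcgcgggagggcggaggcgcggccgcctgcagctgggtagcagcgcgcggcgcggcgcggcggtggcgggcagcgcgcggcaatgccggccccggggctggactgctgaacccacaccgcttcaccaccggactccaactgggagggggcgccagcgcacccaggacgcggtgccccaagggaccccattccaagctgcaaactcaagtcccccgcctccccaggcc

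RUNX3 is on the minus strand, with a listed start of P1 at position 24965010, the outer end of the gene at 24965138, and P2 starting at 24930276. The sequence before P2 lies at chr1:24930277-24930526 and held the summits of a RUNX1 region, without RUNX or ETS letters.
RUNX3 P2: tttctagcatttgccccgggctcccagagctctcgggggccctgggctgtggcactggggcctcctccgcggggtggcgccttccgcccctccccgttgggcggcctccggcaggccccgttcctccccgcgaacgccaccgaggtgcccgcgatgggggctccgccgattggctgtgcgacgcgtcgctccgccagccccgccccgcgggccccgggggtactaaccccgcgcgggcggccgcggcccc

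P1 of RUNX2 and P1 of RUNX3 share an exact run of 18 bases with 2 copies of ACCACA. It was found in 2 of the 35116 windows, these same ones. In RUNX2 it lies at chr6:45328344-45328361 on the plus strand, and in RUNX3 at chr1:24965126-24965143 on the minus strand.
RUNX2 P1 shared run: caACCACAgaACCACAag
RUNX3 P1 shared run: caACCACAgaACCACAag
The same letters had different peaks over them. The RUNX3 copy lay 24 bp from the summit of a strong RUNX1 region, and the RUNX2 copy lay 17820 bp from the nearest RUNX1 summit. The other promoter windows, at the inner starts of CBFA2T2 and CBFA2T3, hold no letters of either kind.

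RUNX1 peaks were found in or within 100 kb of 6 of the 7 genes, and ETS1 peaks of the same 6. Of all coding genes, 82.7% had a RUNX1 region and 49.7% an ETS1 region of both libraries in that range. At RUNX3 and CBFA2T2 no ETS1 peak of either library lay inside the gene. The number of peaks differed between the 7 genes. CBFA2T3 had 42 and 43 RUNX1 peaks and 16 and 14 ETS1 peaks in libraries 1 and 2. RUNX3 had 26 and 24 RUNX1 peaks but 2 and 1 ETS1 peaks. RUNX1 had 16 and 17 RUNX1 peaks and 6 and 5 ETS1 peaks, so it held more ETS1 peaks than RUNX3 on fewer RUNX1 peaks. CBFB had 14 and 12 RUNX1 peaks with 2 and 2 of ETS1, and CBFA2T2 had 11 and 11 with 5 and 5. RUNX2 had 5 and 5 RUNX1 peaks and 1 ETS1 peak in each library. RUNX1T1 had none in any library.

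**Figure D1:**
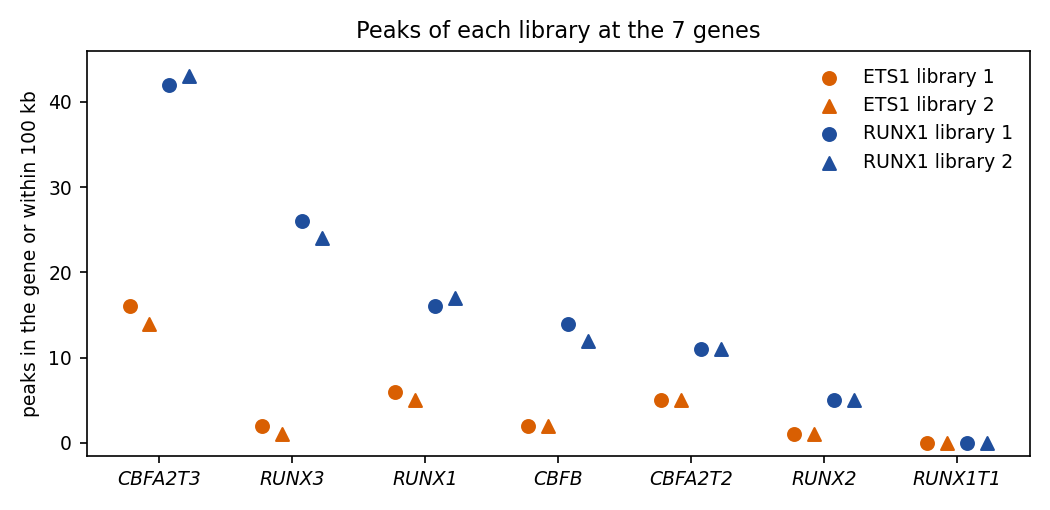
Number of deposited peaks inside each gene or within 100 kb of it (vertical axis) in ETS1 libraries 1 and 2 and RUNX1 libraries 1 and 2, with 1 point a library. RUNX1 peaks run from 42 and 43 at CBFA2T3 to 0 at RUNX1T1, and RUNX3 has 26 and 24 RUNX1 peaks beside 2 and 1 ETS1 peaks.

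Over all 7 windows, the ETS1 libraries held 30 ± 2.83 peaks and the RUNX1 libraries 113 ± 1.41 (mean ± SD, n = 2 libraries each). The groups did not overlap, and the exact two-sided permutation test over the 4 libraries gave p = 0.333, the smallest p that this design allows. As a share of each library's peaks the order was turned: 5.27 and 4.99 per 1000 ETS1 peaks lay in the windows, against 4.50 and 4.48 per 1000 RUNX1 peaks (exact permutation p = 0.333). With each library reduced to its 5611 strongest peaks, the windows held 28.5 ETS1 and 34.5 RUNX1 peaks on average, and the order per 1000 peaks was the other way. The higher ETS1 share also did not hold in the genes alone or within 50 kb of them, where the difference was -0.152 and -0.341 per 1000. Summits within 1 kb of an outer end of any protein-coding gene made up 40.6% and 46.4% of the ETS1 peaks in the windows (95% Wilson intervals 25.5 to 57.7% and 29.5 to 64.2%). For RUNX1 they made up 18.4% and 19.6% (12.4 to 26.5% and 13.3 to 28.0%; exact permutation p = 0.333). Both antibodies were below their own libraries as a whole, which had 56.0% and 57.1% for ETS1 and 33.0% and 32.7% for RUNX1. The windows thus held a smaller share of gene-end peaks than the libraries did.

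Touching or overlapping peaks from both libraries of an antibody were joined into regions, and regions with a peak from each library were kept. This left 25 ETS1 and 102 RUNX1 regions in the windows. In the windows 81.3% and 92.9% of the ETS1 peaks and 91.2% and 95.5% of the RUNX1 peaks lay in such regions. These shares were close to those of the whole lists, 83.5% and 90.9% for ETS1 and 91.0% and 93.1% for RUNX1. The other 23 peaks were found in 1 library only, 6 and 2 of ETS1 and 10 and 5 of RUNX1. All but 1 of these had a fold over IgG of at most 7.18, and that 1 was a RUNX1 peak of library 1 inside CBFB (chr16:67053229-67053562, 13.4-fold, summit pileup 36). Folds here and below are the authors' deposited values at the summit, with the strongest peak taken for each region and library. They describe peaks within a list and are not a measure of the amount of each factor.

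Between libraries, the folds of a region differed by a median factor of 1.06 for RUNX1 and 1.13 for ETS1. The largest factor was 1.79 for RUNX1 and 1.39 for ETS1, and 2 of the 102 RUNX1 regions were above 1.5. The summit pileup, which is the number of reads or fragments stacked at the summit, was recovered from the deposited fold and p. For peaks in the windows its median was 53.5 and 49.5 with ETS1, and 66.5 and 63.5 with RUNX1. Some folds thus rest on few reads, but a low fold did not always go with a low pileup. The ETS1 region at an end of the gene PXMP4, with 2.93 and 2.81, had pileups of 67 and 59. The ETS1 region at the P1 side of RUNX1, with 8.35 and 9.59, had 22 and 24.

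**Figure D2:**
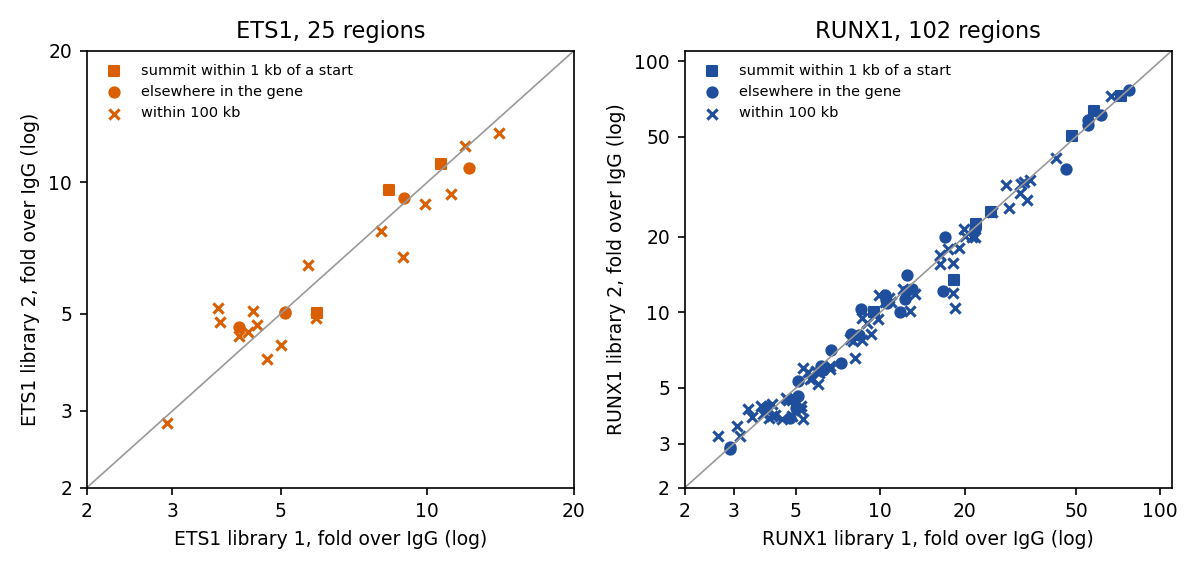
Fold over IgG of the 25 ETS1 regions (left) and the 102 RUNX1 regions (right) in library 1 (horizontal, log axis) and library 2 (vertical, log axis), with squares for summits within 1 kb of a start or outer end of the gene, circles for others inside it, crosses for the 100 kb flanks, and a line at equal folds. Points follow the line in both panels, with a largest factor between libraries of 1.39 for ETS1 and 1.79 for RUNX1.

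By position, 7 RUNX1 regions had their summit within 1 kb of a start or outer end of the gene itself, 30 lay elsewhere inside it, and 65 lay in the flanks. The 25 ETS1 regions divided into 3, 5 and 17. Exons and introns could not be told apart with the annotation used here, so such regions are given as inside the gene. The 7 regions at a start had a median RUNX1 fold of 24.995 (range 9.75 to 72.4), and the 30 inside had 10.8 (2.88 to 77.2). The highest folds of the set were therefore not confined to starts. Of the flank regions of RUNX1, 16 lay at an end of another coding gene, 14 inside one and 35 outside coding genes, and of those of ETS1 9, 3 and 5.

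RUNX1 carried RUNX1 peaks at both of its promoters. At P2 the RUNX1 region chr21:34887833-34891513 had a fold of 72.1 and 72.7 in libraries 1 and 2 (72.4 ± 0.418, mean ± SD, n = 2), above 99.3% of all RUNX1 regions, on pileups of 469 and 453. Its summits lay 490 and 488 bp downstream of the start, inside the gene. At the outer 5′ end, the P1 side, the region chr21:35048062-35049454 had a fold of 58.0 and 63.1 on smaller pileups of 177 and 186. Its summit was 137 bp downstream of the end in both libraries. Both promoters thus stood among the highest folds of the series, above 99.3% and 98.8% of regions.

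ETS1 lay at both promoters too. The ETS1 region of P2, chr21:34887938-34889272, had a fold of 10.7 and 10.998 and pileups of 66 and 63. Its summit was 181 bp upstream of the start in both libraries, within the bases printed above and 77 bp from their CCGGAA, whereas the RUNX1 summit was 670 bp away. A weaker ETS1 region in the same broad RUNX1 region (chr21:34889787-34891227, 5.12 and 5.05) lay 1352 bp upstream of the start and 1841 bp from the RUNX1 summit. Downstream of P2, a narrow RUNX1 region (chr21:34886522-34887213, 12.2 and 11.3) held an ETS1 region of 8.98 and 9.23, with summits 155 bp apart. At the P1 side, the ETS1 region chr21:35049030-35049364 had 8.35 and 9.59 on pileups of only 22 and 24, with its summit 12 bp from that of RUNX1. The strongest RUNX1 summit was thus close to the ETS1 summit at P1 and apart from those at P2. A weaker RUNX1 summit inside the broad P2 region would not be seen by this measure.

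Between the promoters, in the part of RUNX1 that is known to hold a haematopoietic enhancer, 1 region stood above the rest. At chr21:35026299-35027681, 22.2 kb downstream of the outer 5′ end, the RUNX1 fold was 55.1 and 55.8 on pileups of 662 and 640, the deepest of the 102 regions. ETS1 was present in it with 12.2 and 10.8 (pileups 125 and 102), the highest mean ETS1 fold inside any of the 7 genes, and the summits were 0.5 bp apart. Whether it is that enhancer was not examined. The other 10 RUNX1 regions inside the gene, without ETS1, had mean folds of 5.22 to 18.5, the highest at chr21:34807673-34808973 (17.1 and 19.9), where ETS1 had a peak in library 1 only (4.53). That region lay 80.3 kb downstream of P2. Also downstream of P2 were regions at 53.7 kb (5.09 and 5.34) and at 22.99 kb (7.89 and 8.16), the latter over the antisense RNA gene RUNX1-AS1. Between the promoters, regions lay 74.5 kb upstream of P2 (8.37 and 8.11) and 2.30 kb (16.8 and 12.2), 27.1 kb (11.7 and 10.03), 34.5 kb (12.4 and 12.1), 50.3 kb (6.66 and 7.11), 60.9 kb (6.23 and 5.88) and 62.3 kb (8.55 and 10.3) downstream of the outer 5′ end. All of these had lower folds than both promoter regions and the strong region between them. Outside the gene there was a region 2170 bp upstream of the outer 5′ end (16.3 and 15.6) and 1 in the flank inside CLIC6, a chloride channel gene (17.4 and 17.9). RUNX1 was the member with the most ETS1 inside the gene: 17 of 19821 coding genes, itself included, held 5 or more ETS1 regions, and 32 held 14 or more RUNX1 regions. The gene is long, and per 100 kb of gene and flanks 22.5% of coding genes had at least as many RUNX1 regions.

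RUNX2 had a peak at P2 and none at P1. The P2 region, chr6:45421525-45423604, had a RUNX1 fold of 22.04 and 22.4, above 88.4% of all RUNX1 regions, with summits 634 and 689 bp downstream of the start. No ETS1 peak lay in it. A second region of the same height (chr6:45377298-45378466, 21.8 and 21.4) lay inside RUNX2, 44.5 kb upstream of P2. It was at the outer end of SUPT3H, a transcription coactivator subunit gene that overlaps the first part of RUNX2, so that the region cannot be given to one of these genes by position. It held the only ETS1 region of the RUNX2 window (4.11 and 4.66, summits 120 bp apart). A very weak region (2.91 and 2.90) lay 2.22 kb upstream of P2. In the flanks, regions of 9.88 and 11.7 inside SUPT3H and of 18.1 and 15.8, 35.5 kb beyond the gene, completed the 5.

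RUNX3 carried many strong RUNX1 regions with hardly any ETS1. P1 lay in a region of 48.2- and 50.6-fold (chr1:24963115-24966284, pileups 413 and 414), with its summit 36 bp downstream of the outer end in both libraries. P2 lay in a lower one (chr1:24928671-24931294, 18.3 and 13.5), with summits 140 and 204 bp upstream of the start. The highest fold of the gene was at neither promoter but 5.02 kb downstream of P2 (chr1:24924831-24926234, 61.4 and 60.9, pileups 526 and 499), above 98.9% of all RUNX1 regions. The other 7 regions inside the gene had mean folds of 2.88 to 13.3. Downstream of P2 they lay at 3.32 kb (10.6 and 10.9), 6.98 kb (4.77 and 3.79), 14.5 kb (10.5 and 11.2) and 19.1 kb (10.4 and 11.8). Between the promoters they lay 2.28 kb upstream of P2 (4.997 and 4.17) and 10.2 kb (12.5 and 14.1) and 16.8 kb (2.91 and 2.85) downstream of the listed start of P1. The antisense RNA gene RUNX3-AS1 overlaps both promoter regions and 3 of these 7.

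The flanks of RUNX3 held 13 RUNX1 regions, all outside coding genes. The 3 highest were a region 51.1 kb downstream of the gene (chr1:24847819-24849194, 42.4 and 41.1), 1 at 32.6 kb upstream (chr1:24997184-24999171, 32.5 and 33.0) and 1 at 69.0 kb upstream (chr1:25033388-25035405, 28.1 and 32.0). The single ETS1 region lay 57.6 kb upstream (chr1:25022279-25022920, 3.76 and 4.79) in a RUNX1 region of 21.2 and 19.9, with summits 49.5 bp apart. ETS1 library 1 also had a peak in the strong downstream region (5.12), without support in library 2. Inside RUNX3 no ETS1 peak was called in either library, and the nearest lay 50.9 and 57.1 kb from the gene. RUNX3 touched 10 RUNX1 regions, and 89 of 19821 coding genes touched 10 or more. Per 100 kb of gene and flanks, 3.33% of coding genes had at least as many.

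CBFB carried both factors at its lower-coordinate end and no other region in the gene. The RUNX1 region chr16:67028582-67030068 had 24.8 and 25.2 (24.995 ± 0.231, mean ± SD, n = 2), with its summit 70 bp outside the end in both libraries. The ETS1 region chr16:67028697-67029573 had 5.93 and 5.02, with its summit 186 bp from that of RUNX1. Of the flank regions, the highest was 15.0 kb from that end, outside coding genes (chr16:67013361-67015109, 21.8 and 19.9), without ETS1. It was followed by 1 at CIAO2B and CES2, an iron-sulphur assembly gene and a carboxylesterase gene (18.6 and 10.4, the largest ratio between libraries among the RUNX1 regions). The region at MATCAP1 and EXOC3L1 (13.3 and 11.8) held the other ETS1 region of the window (5.92 and 4.88). The other 8 flank regions had mean folds of 3.76 to 7.83 and lay at or in neighbouring genes such as TRADD, a signalling adaptor of the TNF receptor, and E2F4, a cell cycle regulator.

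The ETO-family genes differed in how many RUNX1 regions touched them, from 9 at CBFA2T3 to 1 at CBFA2T2 and 0 at RUNX1T1. CBFA2T2 had 1 RUNX1 region, at its outer 5′ end (chr20:33489722-33490728, 9.46 and 10.045), and no ETS1 inside the gene or within 10 kb. Its inner start had no peak. All 4 ETS1 regions of its window lay at ends of other genes. Those described here were at the cell cycle factor E2F1 (3.71 and 5.15), at PXMP4, which encodes a peroxisomal membrane protein (2.93 and 2.81), and at the zinc finger gene ZNF341 (4.40 and 5.09). RUNX1 was higher at the same ends, with 18.1 and 11.97 at E2F1, 8.64 and 9.48 at PXMP4 and 31.5 and 29.9 at ZNF341. A RUNX1 region outside coding genes, 4216 bp from E2F1, had 19.1 and 18.0 without ETS1.

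With flanks of 100 kb counted, CBFA2T3 was the densest of the 7. Its window held 35 RUNX1 and 12 ETS1 regions, and 16 and 198 of 19821 coding genes, itself included, held at least as many. Per 100 kb of gene and flanks, 0.918% and 2.69% of coding genes had at least as many. Most of these regions lay in the flanks, and 9 RUNX1 regions and 1 ETS1 region touched the gene itself. RUNX3 touched 10 and 0 over 65.6 kb, against 102 kb for CBFA2T3. RUNX1, 262 kb long, touched 14 and 5. The remaining members touched at most 3 and 1. Inside CBFA2T3 the highest region, chr16:88938630-88944977, was also the highest of the 102, with 77.7 and 76.8 on pileups of 612 and 579, above 99.4% of all RUNX1 regions. It spans the inner start at position 88941350, and its summit lay 2028 bp upstream of that start in both libraries. The only ETS1 region inside CBFA2T3 was in it (chr16:88943211-88943539, 5.11 and 5.04), with its summit 1 bp from that of RUNX1. Here a low ETS1 fold lay exactly under the highest RUNX1 fold of the set.

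Toward the outer 5′ end, RUNX1 regions of 55.4 and 58.5 (chr16:88952975-88959720) and of 46.2 and 37.1 (chr16:88961099-88964436) followed, each with an ETS1 peak in 1 library only (3.50 in library 1 and 5.33 in library 2). The remaining 5 inside the gene had mean folds of 4.06 to 12.7. They lay 45.8 kb (3.91 and 4.20) and 16.1 kb (7.22 and 6.29) downstream of the inner start, and 9.001 kb (12.96 and 12.4), 6.52 kb (5.07 and 4.63) and 2.64 kb (6.17 and 6.11) downstream of the outer 5′ end. The outer 5′ end at position 88977207 lay under the region chr16:88976296-88979765 (28.9 and 26.0045), whose summit was 1.91 kb outside it. That region had an ETS1 peak in library 1 only (3.25). In the upstream flank, which has no coding gene, the highest region lay 55.2 kb away (chr16:89031745-89032816), with 67.0 and 72.8 for RUNX1 and 11.97 and 12.1 for ETS1, summits 58.5 bp apart. It had the highest RUNX1 fold of any flank region. Another upstream region, 15.9 kb away (20.1 and 20.1), held ETS1 of 5.01 and 4.24, with summits 13.0 bp apart, and 1 at 5.52 kb (34.4 and 33.7) had an ETS1 peak in library 2 only.

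The downstream flank of CBFA2T3 is rich in genes, and 9 of the 12 ETS1 regions lay there. Of these, 4 were at or in PIEZO1, which encodes a mechanosensitive channel, with mean folds of 4.31 to 7.89. A pair lay between PIEZO1 and CDT1, a replication licensing gene. In this pair RUNX1 had 31.8 and 32.4 with ETS1 of 8.90 and 6.73, and 33.5 and 27.9 with ETS1 of 11.2 and 9.39. At the end of CDT1, ETS1 had 14.0 and 12.9 and RUNX1 8.14 and 6.56. This was the only one of the 25 ETS1 regions with a higher deposited fold of ETS1 than of RUNX1. The last 2 were at APRT, a purine salvage gene (ETS1 9.88 and 8.92), and between GALNS and TRAPPC2L (5.69 and 6.46).

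RUNX1T1, on chromosome 8, had no peak in any library inside the gene or within 100 kb. The nearest RUNX1 peak lay 862 kb away and the nearest ETS1 peak 1970 kb away in both libraries. Of all coding genes, 17.2% had neither a RUNX1 nor an ETS1 region within 100 kb, so this state was not rare.

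**Figure D3:**
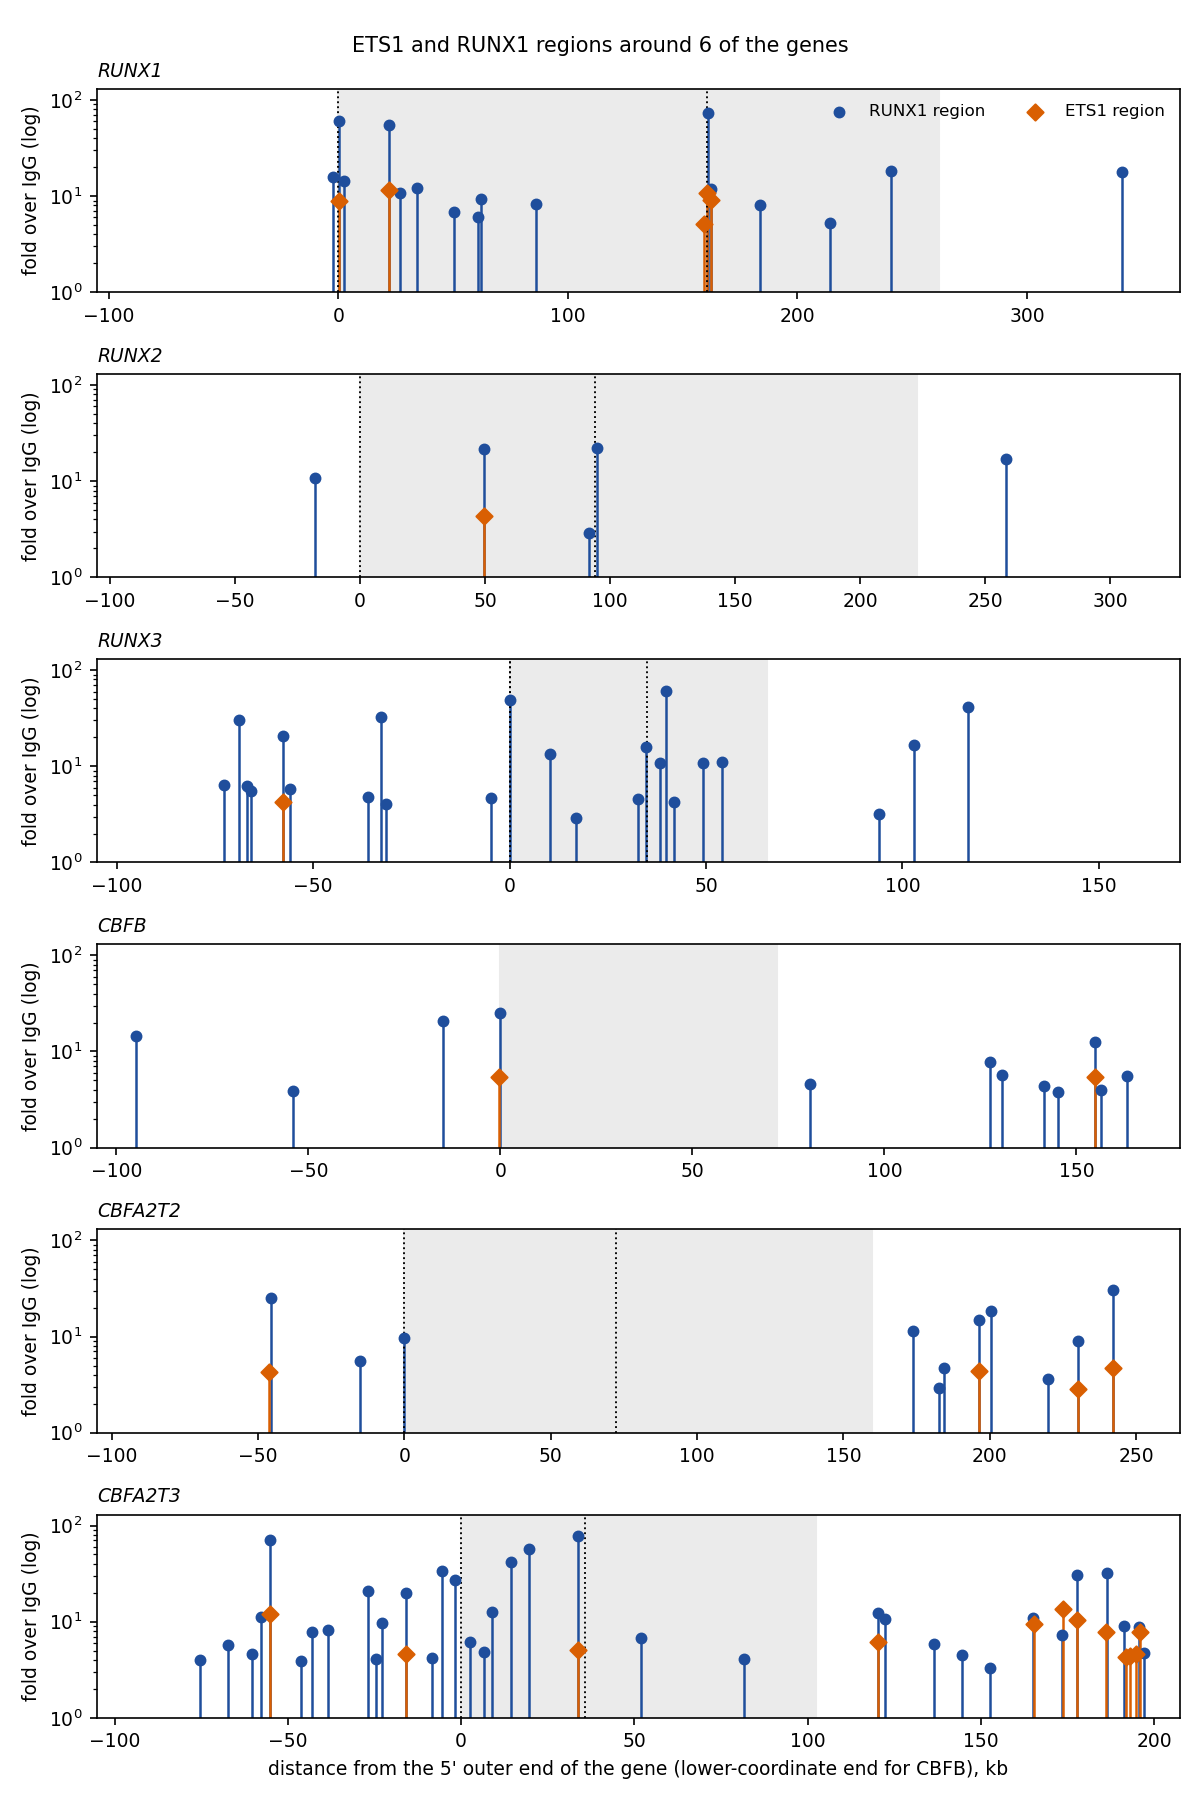
Fold over IgG (log axis, mean of 2 libraries) of each RUNX1 region (blue circles) and ETS1 region (orange diamonds) against distance in kb from the 5′ outer end of the gene, or from the lower-coordinate end for CBFB, with the gene shaded and listed starts or the 5′ end dotted. RUNX1 has ETS1 at both promoters and 22.2 kb downstream of the 5′ end, RUNX3 has 10 RUNX1 regions and no ETS1 inside the gene, and CBFA2T2 has a single region, at its 5′ end.

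For counts over genes, here and in the gene lists below, a region was at an outer end if any part of it lay within 1 kb. A RUNX1 region lay at an outer end of 5 of the 7 (not RUNX2 and RUNX1T1), against 47.2% of all coding genes. The 5 include CBFA2T3, where the summit of the region lay 1.905 kb outside the end. An ETS1 region lay at an outer end of 2, RUNX1 and CBFB, against 19% of all. With any overlap of the gene bounds counted, RUNX1 regions touched 6 of 7 (54.3% of all genes) and ETS1 regions 4 of 7 (20.3%). At CBFB and CBFA2T2 the regions that touched the gene had their summits just outside it. The 7 genes are 65.6 to 262 kb long, and the shares over all genes were not matched for length. Within 10 kb the counts were 6 of 7 for RUNX1 (62.3% of all genes) and 4 of 7 for ETS1 (27.5%), and within 100 kb 6 of 7 for both (82.7% and 49.7%). With 7 genes, shares of this size are a description and were not tested.

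ETS1 and RUNX1 regions overlapped by at least 1 bp in 22 of the 102 RUNX1 regions. This share, 21.6% (95% Wilson interval 14.7 to 30.5%), was near the 20.6% of all RUNX1 regions. In the other direction, 25 of 25 ETS1 regions overlapped a RUNX1 region (100%, interval 86.7 to 100%), against 98% of all ETS1 regions. By gene, the RUNX1 regions with ETS1 were 4 of 16 at RUNX1, 1 of 5 at RUNX2, 2 of 12 at CBFB, 4 of 11 at CBFA2T2 and 10 of 35 at CBFA2T3. At RUNX3 they were 1 of 23 (4.35%, interval 0.772 to 21.0%). The intervals cover counting error only and take regions of 1 locus as separate draws, and the genes were not tested against each other.

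The share depended on the RUNX1 fold, in the windows as in the series. All RUNX1 regions of the series were ranked by fold and divided into 10 groups of equal size. The share with ETS1 rose from 2.72% in the lowest group to 52.9% in the highest. Of the regions in the windows, 19 belonged to the highest group, with a mean fold of at least 24.1, and 10 of them held ETS1. These were 3 of 3 at RUNX1, 1 of 1 at CBFB, 2 of 2 at CBFA2T2 and 4 of 8 at CBFA2T3. At RUNX3 they were 0 of 5, namely P1, the region downstream of P2 and the 3 highest of its flanks. Holding ETS1 here means an ETS1 region with a peak from each library. The other regions of this group at CBFA2T3 each had an ETS1 peak in 1 library only (folds 3.50, 5.33, 3.25 and 4.39). So did the highest flank region of RUNX3 (5.12). In the 4 lowest groups 0 of the 40 regions in the windows held ETS1, against 5.72% of all regions in those groups.

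**Figure D4:**
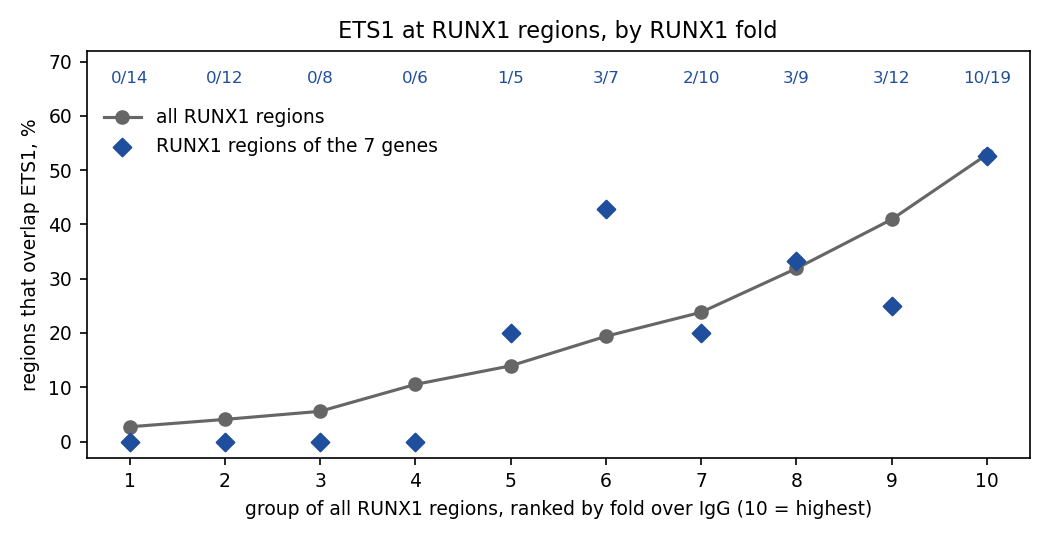
Share of RUNX1 regions that overlap an ETS1 region (vertical axis, %) in 10 groups of RUNX1 regions of equal size ranked by fold (horizontal, group 10 is highest), for all regions (grey line) and for those of the 7 genes (blue diamonds, with counts above). The grey line rises from 2.72 to 52.9%, and the 7 genes have 10 of 19 in the highest group.

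The median distance between ETS1 and RUNX1 summits was longer in these windows than in the series. Over the 25 shared pairs the median distance was 152.5 bp (range 0 to 2526.5), and 11 pairs (44.0%) were within 100 bp, against 66.5% of 4953 pairs and a median of 57.0 bp in the series. The median depended on the window: with flanks of 50 kb it was 88.5 bp over 12 pairs. Broad RUNX1 regions made up 13 of the 25: in those of 2 kb or more, the median was 214.5 bp, with 4 of 13 pairs within 100 bp (series 91.0 bp and 52.1%). In narrower regions it was 57.75 bp, with 7 of 12 within 100 bp (series 48.0 bp and 73.3%). Several pairs share a RUNX1 region or a locus, and this difference was not tested. The position of a summit was more precise than most of these distances. The summits of the 2 libraries of an antibody differed by a median of 3 bp for ETS1 and 7 bp for RUNX1, and were on the same base in 9 of 25 and 31 of 102 regions.

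The pairs ranged from nearly the same base to distant summits, with several genes at each extreme. Within 13 bp lay the region between the RUNX1 promoters (0.5 bp), RUNX1 P1 (12 bp), the inner start of CBFA2T3 (1 bp), the region 15.9 kb upstream of CBFA2T3 (13.0 bp) and the end of PXMP4 (0 bp). Among the most distant were both ETS1 regions at RUNX1 P2 (670 and 1841 bp) and 3 of those at PIEZO1 (419 to 2526.5 bp). At 1 pair between PIEZO1 and CDT1 the libraries disagreed, with 87 bp in library 1 and 499 bp in library 2, and the strongest ETS1 summit itself differed by 493 bp between them.

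**Figure D5:**
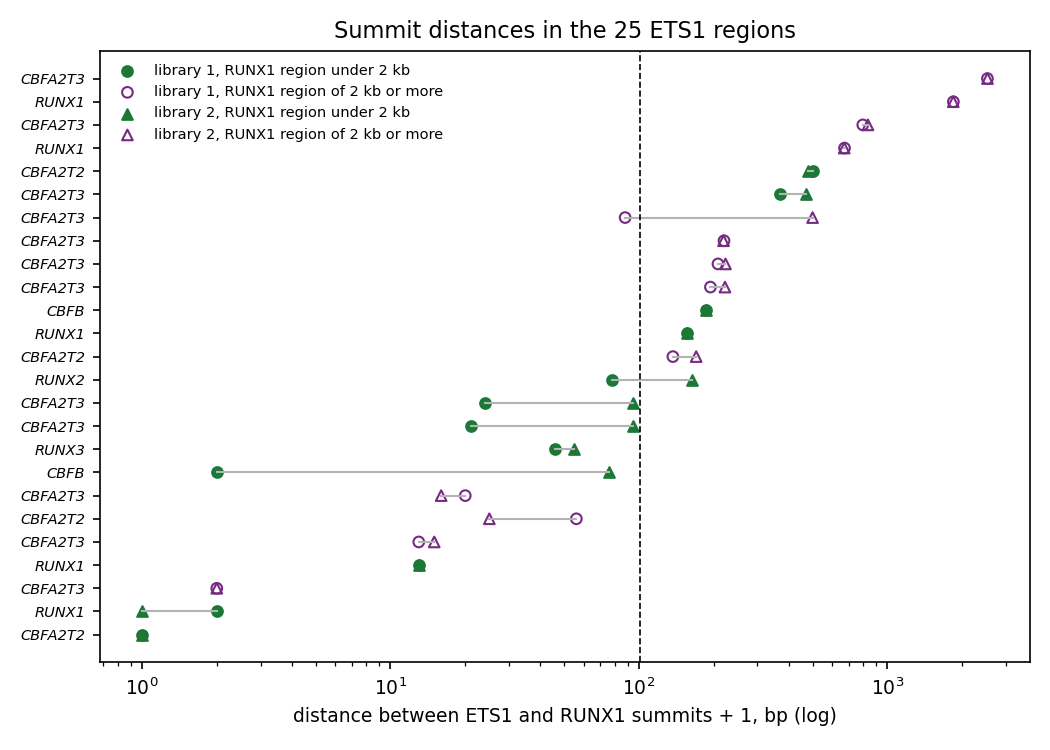
Distance between the ETS1 and RUNX1 summits (horizontal, bp + 1, log axis) in libraries 1 (circles) and 2 (triangles) for the 25 ETS1 regions, named by gene and ordered by distance, with filled green symbols for RUNX1 regions under 2 kb and open purple ones for 2 kb or more. The dashed line is at 100 bp, within which 11 of the 25 distances between library-averaged summits fall, and a grey line joins the 2 libraries of a pair.

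Regions of RUNX1 and of ETS1 were often found at genes of proteins that work with RUNX and CBFB. Of 27 such genes, 22 had a RUNX1 region and 15 an ETS1 region at an outer end, against 47.2% and 19% of coding genes. All 15 had both, but 98% of all ETS1 regions overlap a RUNX1 region, so this says little about the list. The share of all coding genes with both at an end is not given here. Within 10 kb the counts were 24 and 21, against 62.3% and 27.5% of coding genes. The list was chosen with earlier results of these data known and was not tested. At an end of TLE4, a Groucho corepressor, RUNX1 reached 36.5 ± 0.565 and ETS1 15.6 ± 2.09, and at the histone deacetylase gene HDAC1 they reached 15.0 ± 0.762 and 18.3 ± 0.652 (mean fold ± SD, n = 2). PRMT1, which methylates RUNX1, had 23.7 ± 0.884 and 17.9 ± 4.31. The kinase PIM1 had 41.2 ± 0.479 and 4.64 ± 0.101, and the ETS-family repressor ETV6, another fusion partner of RUNX1, had 36.0 ± 0.881 and 3.95 ± 0.236. The acetyltransferase EP300 had 27.4 ± 0.537 and 7.51 ± 0.297. MYH11, the fusion partner of CBFB in acute myeloid leukaemia, PRMT6 and YAP1 had neither factor within 10 kb.

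The labelled cell type was checked at the ends of marker genes, which is occupancy and not expression. Of 12 T-lineage markers, 10 had a RUNX1 and 5 an ETS1 region at an end, against 47.2% and 19% of all coding genes. ETS1 was at an end of 0 of 6 B-lineage, 0 of 6 myeloid, 0 of 4 erythroid and 0 of 5 non-blood markers, and RUNX1 of 1, 2, 2 and 1. Within 10 kb (62.3% and 27.5% of all genes), RUNX1 was at 11 and ETS1 at 8 of the T-lineage markers. There RUNX1 was also at 3 of 6 B-lineage, 5 of 6 myeloid, 2 of 4 erythroid and 3 of 5 non-blood markers, and ETS1 at 2, 0, 2 and 0. Neighbouring genes can share a region, so these counts are not all of separate loci. Within 10 kb, CD3G and CD3D had the same ETS1 fold (8.08). LCK had the same highest ETS1 fold as HDAC1 of the co-regulator list (18.3). CD3E, a chain of the T-cell receptor complex, had 52.0 ± 0.512 for RUNX1 and 13.4 ± 1.51 for ETS1, and TRAT1 had neither. Within 10 kb the B-lineage marker CD79A had higher mean folds than CD3E, 66.9 for RUNX1 and 14.9 for ETS1. At an end of CD79A, RUNX1 had 11.3 ± 0.218 and ETS1 had no region.

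For each of the 4 members with both factors in the gene or within 10 kb, the coding genes with the most similar highest folds in that range were looked up. The highest fold was taken in each of the 4 libraries separately, so the values of a gene can come from different regions. At CBFA2T3 the value of ETS1 library 2 (5.33) was a peak of that library only. Likeness was the Euclidean distance of the log2 folds over the 4 libraries, so it rests on 4 values a gene. RUNX1 was nearest to ZNRF1 (distance 0.0588), SEPTIN9 (0.0721) and PDE6G (0.181), and CBFB to PARD3 (0.0977), ESR2 (0.111) and MGA (0.112). RUNX2 was nearest to SUPT3H (0.0667), which shares a region with it, then TEX9 (0.159) and PKIB (0.165). CBFA2T3 had no gene as close, with CFAP99 at 0.278, ZFYVE28 at 0.279 and KREMEN1 at 0.316.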

How the data were processed

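The submitters' processing notes name bcl2fastq 2.17, Bowtie2 without a version, MACS3 3.0.0a6 and hg38. Per the labels, peaks were called in each library against IgG; call threshold and read filters were not given in the sources used here. For each peak the deposited lists give the fold enrichment over IgG (a ratio), −log10 p, −log10 q and a score, which was not used further. The lowest deposited −log10 q was 5.00 to 5.03. Read totals are not in the lists, so depth is unknown in absolute terms. A whole-number pileup was solved from the deposited fold and −log10 p of each peak and matched −log10 p within 0.01, or 5e-05 of it, for 100% of peaks.

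Only peaks on chromosomes 1 to 22 and X entered (6070, 5611, 25356 and 24997). Peaks of both libraries that touched were merged. Summit distance is taken between the strongest summits of the ETS1 and the RUNX1 region, each averaged over libraries 1 and 2. Gene bounds and starts came from RefSeq GRCh38.p14, without exons; 153 genes on scaffolds were left out. Wilson intervals of 95% are given for shares and cover counting error alone. All 7 genes are named, with each region in or within 1 kb of them, each ETS1 region and the 3 highest flank regions of each gene. The values of 1 flank locus are counted but not reported here. Single-library peaks were named after their values were seen. Members and lists (co-regulators, lineage markers) were chosen with earlier results of these data known. Alternatives were other windows, thresholds, overlaps, peak numbers and left-out libraries. Scripts used Python 3.11.15, pandas 2.3.3, NumPy 2.4.6 and SciPy 1.17.1 and were tested on simulated data.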

Additional observations from a re-analysis of the deposited data

How the results depend on the processing

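The higher share of ETS1 peaks in the windows (0.643 per 1000 peaks) reversed with windows of 50 kb (-0.341), with the genes alone (-0.152) and with each library reduced to its strongest 5611 peaks (-1.07). At −log10 q of at least 20 it was 0.0190 (exact permutation p = 1). The share of RUNX1 regions with ETS1 moved from 21.6% to 9.80% with a reciprocal overlap of 50%, to 13.7% with any pair of summits within 100 bp, to 14.5% at −log10 q of at least 20 and to 50% with equal numbers of peaks. The share of ETS1 regions with RUNX1 moved from 100% to 40.0%, 56.0% and, with equal numbers, 68.0%. With summits within 100 bp the median distance was 15.5 bp, by construction. Leaving out 1 library gave -85 to -81 peaks, 0.502 to 0.784 per 1000, a difference of 21.6 to 27.4 percentage points at gene ends, shares of 19.3 to 27.5% and of 100%, and distances of 120.25 to 155 bp. In the exact test with a replicate block the differences stayed at -83, 0.643 and 24.5 (p = 0.5, the smallest it allows); same-numbered libraries were hardly related (r = 0.0226 over 4953 shared regions), so the numbers are not taken as pairs. Of 14 counts of regions per gene, 9 moved in the genes alone, 7 at −log10 q of at least 20, 6 with 50 kb and 1 without ETS1 replicate 2. The difference in peak number was -61.5 with 50 kb, -33.5 in the genes alone, -62.5 at −log10 q of at least 20 and -6 with equal numbers, and the gene-end difference 15.7 points in the genes alone and 15.2 with equal numbers. The median summit distance was 88.5 bp with 50 kb. The median distance with equal numbers of peaks was not run.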
